A study of Homo sapiens with 18 samples.

Results

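The Notch pathway genes described here are 10 genes: the receptors NOTCH1, NOTCH2 and NOTCH3, the ligands DLL1, DLL3 and JAG1, and the transcription factors HES1, HES3, HES5 and HEY1, which belong to the HES and HEY family of Notch targets. They were chosen by symbol, and each matched 1 of the 37550 rows of a table of TPM (an abundance per transcript length, scaled so that each library has the same sum). Their levels were followed in 18 libraries of polyadenylated RNA from H1, an established wild-type human pluripotent stem cell line, in 9 groups of 2 biological replicates. Undifferentiated cells at day 0 are called hPSC. All other cells spent day 1 in a definitive ectoderm medium with inhibitors of the TGF-beta receptor (A8301), MEK (trametinib), WNT secretion (C59) and the BMP receptor (LDN193189). Anterior neural ectoderm (aNE) was then taken to day 2 with A8301, LDN193189 and C59. Posterior neural ectoderm (pNE) was taken to day 2 with A8301, LDN193189, the retinoic acid receptor agonist TTNPB, FGF2 and the tankyrase inhibitor XAV939. Thiazovivin, a ROCK inhibitor, was in both day-2 media. Cells of each origin were also carried to day 4 in a forebrain (aNE_T, pNE_T), midbrain (aNE_M, pNE_M) or hindbrain medium (aNE_H, pNE_H). The forebrain medium held XAV939, LDN193189 and FGF2, and what the midbrain and hindbrain media held was not used here. Day-2 cells were plated at 37500 cells per cm2, and day-4 cells at 75000 (aNE origin) or 150000 cells per cm2 (pNE origin). Origin and plating density thus cannot be told apart at day 4, nor can day and plating density within an origin. All groups come from the same cell line.

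Notch receptors are cut at the membrane when a ligand on a neighbouring cell binds them, and the freed intracellular part joins RBPJ and Mastermind proteins on DNA to switch on target genes. In the developing nervous system the HES and HEY repressors made in this way hold back proneural genes and keep progenitors undifferentiated, while cells that display more Delta ligand tend to become neurons. Transcript levels, as measured here, do not show receptor cleavage. Because the libraries are bulk RNA, fewer cells of a type and less RNA per cell cannot be told apart.

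Between 13686 and 14679 genes per library reached 1 TPM, and read depth cannot be told from TPM. Each library correlated best with its own replicate. The sum of 4 pluripotency markers (POU5F1, NANOG, TDGF1 and DPPA4) was 4035 to 4046 TPM in hPSC and 56.4 to 420.1 TPM in the other groups. The summed neural progenitor markers (PAX6, SOX1, SOX2, NES and CDH2) ran from 417 to 1409 TPM after day 0, highest in aNE_T (1378 to 1409 TPM) and pNE_T (1081 to 1098 TPM). SOX1 was under 1 TPM in aNE_M, aNE_H and pNE_H, and PAX6 was under 1 TPM in pNE_M, so these groups lacked a defining marker of the neural label. Of 7 neuronal markers, 2 to 5 reached 1 TPM in any group, and ELAVL4 and NHLH1 were under 1 TPM in all 9. Differences were tested with limma on log2(TPM + 1) over the 17033 genes that reached 1 TPM in 2 or more libraries. A gene was called changed where its Benjamini-Hochberg adjusted p was under 0.05 and its log2 difference was 1 or more in either direction. Every log2 difference below is on the log2(TPM + 1) scale, which understates changes of low genes, and is given with its standard error.

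All 10 members entered the test. HES5 passed the minimum level through the 2 aNE_T libraries only, so its 4 calls, all against aNE_T, were fixed by that filter. Over 18 comparisons of 2 groups the 9 other members were called 62 times in 162 (38.3%), beside 8.78% of all values of tested genes. Receptors gave 14 calls in 54, ligands 19 in 54 and the 3 targets other than HES5 29 in 54. With HES5 counted in, there were 66 calls in 180. HES3 was called in 16 of 18 comparisons, DLL1 in 12, NOTCH2 and HES1 in 7 each, DLL3 and HEY1 in 6 each, NOTCH1 and HES5 in 4 each, NOTCH3 in 3 and JAG1 in 1. These comparisons share libraries, and the members were chosen with results of these data known, so the shares describe the members and test nothing.

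**Figure D1:**
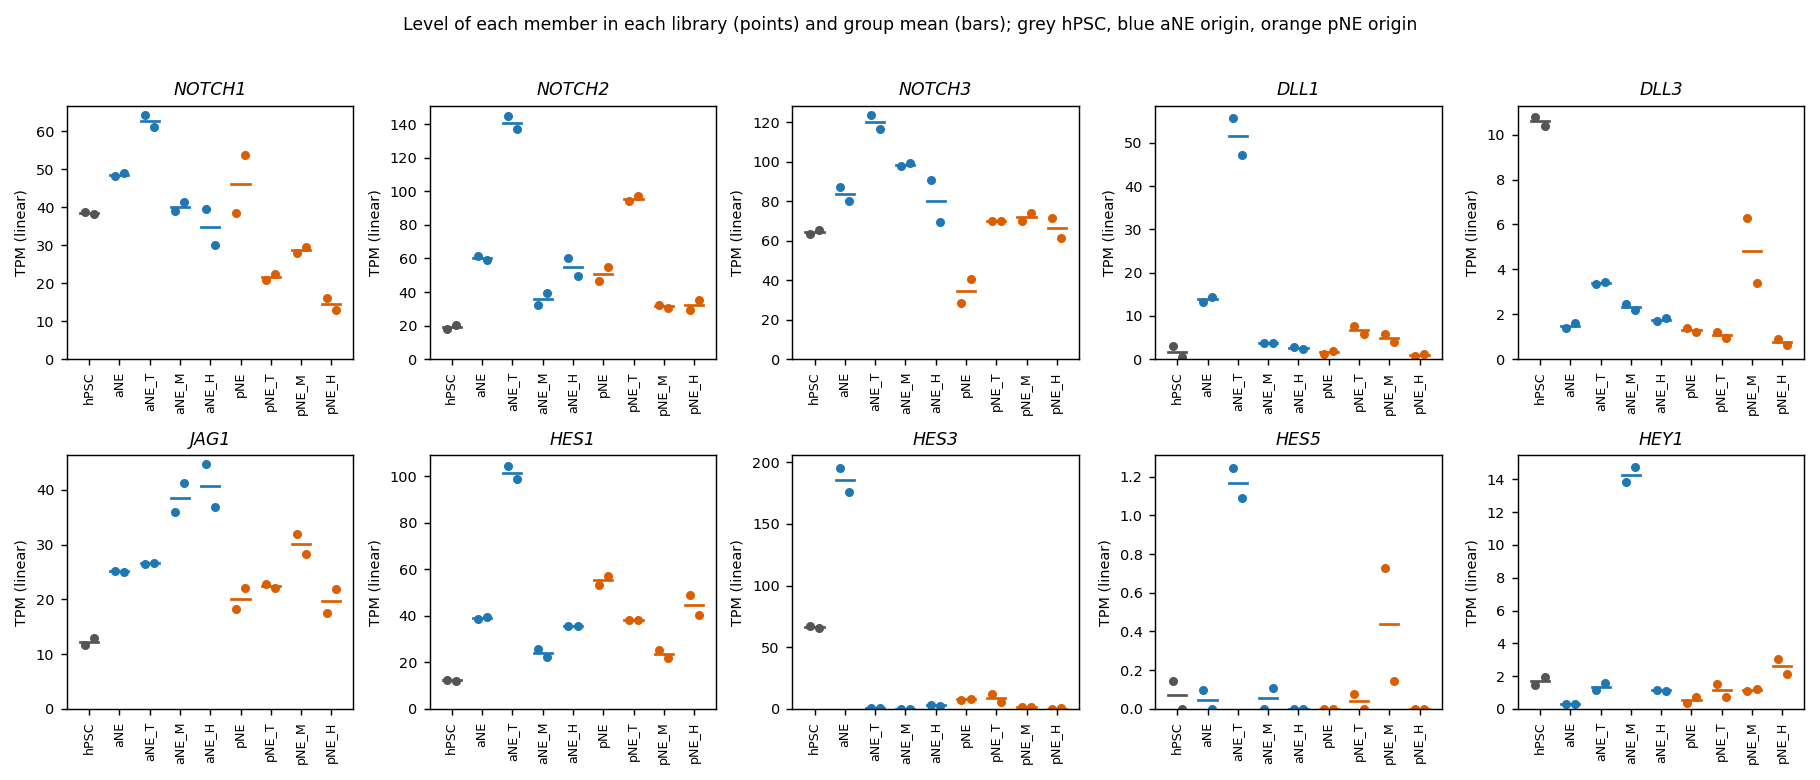
TPM (linear axis from 0) of each member in the 9 groups; points are the 2 libraries of a group and bars their mean, in grey for hPSC, blue for aNE origin and orange for pNE origin. NOTCH1, NOTCH2, NOTCH3, DLL1, HES1 and HES5 have their highest group mean in aNE_T, whereas HES3 peaks in aNE at day 2, HEY1 in aNE_M, JAG1 in aNE_H and DLL3 in hPSC.

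The receptors were transcribed in every library. Of the 3, NOTCH1 (chr9:136494433-136546048 in RefSeq on GRCh38.p14) had levels between 13.02 and 64.2 TPM. In hPSC the 2 libraries had 38.8 and 38.1 TPM, in aNE 48.2 and 48.9 TPM, and in pNE 38.5 and 53.7 TPM. At day 4 in the forebrain medium NOTCH1 stood at 64.2 and 61.3 TPM in cells of aNE origin but at 20.7 and 22.5 TPM in cells of pNE origin. The midbrain medium gave 39.0 and 41.3 TPM against 28.1 and 29.4 TPM, and the hindbrain medium 39.6 and 30.1 TPM against 16.01 and 13.02 TPM. All 6 day-4 libraries of pNE origin were thus below all 6 of aNE origin. The nearest were 29.4 TPM in pNE_M and 30.1 TPM in aNE_H. How many of all tested genes separate in this way was not counted. The order of group means ran from aNE_T (62.7 ± 2.1 TPM, SD, n = 2) down to pNE_H (14.5 ± 2.1 TPM), and 3 of the 8 neighbouring pairs in that order had overlapping libraries, all of them among aNE, pNE, aNE_M, hPSC and aNE_H.

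NOTCH2 (chr1:119911553-120069662) was lowest in pluripotent cells, with 17.97 and 20.4 TPM. It stood at 61.7 and 59.2 TPM in aNE and at 46.7 and 54.6 TPM in pNE. The forebrain medium held the highest levels from either origin, 145 and 137 TPM in aNE_T and 94.1 and 97.03 TPM in pNE_T. The other media gave 32.3 and 39.7 TPM in aNE_M, 60.1 and 49.3 TPM in aNE_H, 32.2 and 30.8 TPM in pNE_M and 29.6 and 35.3 TPM in pNE_H. No library outside the forebrain medium reached a library inside it. NOTCH2 has partial copies on the same chromosome, NOTCH2NLA, NOTCH2NLB, NOTCH2NLC and NOTCH2NLR, which share much of its sequence, so its values are uncertain by what the authors' tool assigned to them. NOTCH2NLA was listed at 14.7 ± 9.9 TPM in hPSC and 117 ± 19 TPM in aNE_T, with other group means of 28.3 to 66.2 TPM. When the 4 copies were added to NOTCH2, a choice made after seeing the data, all of its 7 calls between groups were made again in the same direction.

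NOTCH3 (chr19:15159038-15200995), a receptor best known from vascular smooth muscle that is also made by neural progenitors, had 63.5 and 65.2 TPM in hPSC and 87.0 and 80.0 TPM in aNE. Its lowest group was pNE at day 2, with 28.6 and 40.8 TPM. By day 4 the cells of pNE origin had 69.8 and 69.8 TPM in the forebrain, 70.2 and 74.0 TPM in the midbrain and 71.3 and 61.4 TPM in the hindbrain medium. Cells of aNE origin had 124 and 116 TPM in aNE_T, 98.0 and 99.0 TPM in aNE_M and 90.8 and 69.5 TPM in aNE_H. The low level of pNE at day 2 was therefore not seen in any day-4 group of that origin.

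On the TPM scale, which is per transcript length, the 3 receptors together summed to 122 ± 2 TPM in hPSC, 192 ± 6 TPM in aNE, 131 ± 25 TPM in pNE and 323 ± 13 TPM in aNE_T. The sum was 187 ± 3 TPM in pNE_T and 113 ± 5 TPM in pNE_H. NOTCH2 made up 15.7% ± 1.1 of that sum in hPSC, 43.5% in aNE_T and 51.1% ± 0.2 in pNE_T, against 20.6% ± 2.1 in aNE_M and 23.8% ± 1.2 in pNE_M. At day 2 its share was already 31.4% ± 0.1 in aNE and 38.9% ± 3.1 in pNE. In the hindbrain medium it was 32.3% ± 1.1 in aNE_H and 28.7% ± 4.8 in pNE_H. The NOTCH2 share of the receptor sum was thus highest in the forebrain medium from both origins, above that of the day-2 cells.

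Among the ligands, DLL1 (chr6:170282206-170291078), a Delta ligand that activates Notch on neighbouring cells, varied most. The hPSC libraries disagreed, with 2.97 and 0.451 TPM. It had 13.2 and 14.4 TPM in aNE and 1.16 and 1.93 TPM in pNE. In aNE_T it reached 55.8 and 47.2 TPM, far above the other day-4 groups of aNE origin, which had 3.74 and 3.76 TPM (aNE_M) and 2.87 and 2.37 TPM (aNE_H). Cells of pNE origin had 7.58 and 5.71 TPM in the forebrain, 5.90 and 4.04 TPM in the midbrain and 0.776 and 1.22 TPM in the hindbrain medium. The aNE and aNE_T libraries lay above all others and apart from each other.

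DLL3 (chr19:39498947-39508469), a divergent Delta protein that does not activate Notch on other cells and acts mostly inside the cell that makes it, was highest in hPSC at 10.8 and 10.4 TPM. Only pNE_M, with 6.26 and 3.37 TPM, and aNE_T, with 3.35 and 3.43 TPM, had a group mean above 3 TPM after day 0. The other 6 groups had between 0.641 and 2.47 TPM. Its hPSC libraries did not overlap with any other library.

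JAG1 (chr20:10637684-10673999), the Jagged ligand, was lowest in hPSC at 11.6 and 12.9 TPM and was above that in all 16 other libraries. It had 25.2 and 25.0 TPM in aNE and 18.3 and 22.0 TPM in pNE. At day 4 it was highest in aNE_H (44.7 and 36.8 TPM) and aNE_M (35.9 and 41.2 TPM), whose libraries overlapped. The remaining values were 26.5 and 26.6 TPM in aNE_T, 22.8 and 22.1 TPM in pNE_T, 31.9 and 28.2 TPM in pNE_M and 17.49 and 21.9 TPM in pNE_H. Its whole range over group means was 3.33-fold on the TPM scale, the narrowest of the 9 members with no group mean of 0, beside 51.7-fold for DLL1 and 13.8-fold for DLL3.

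The 3 ligands summed to 24.5 ± 1.2 TPM in hPSC, 40.5 ± 0.9 TPM in aNE, 23.0 ± 3.1 TPM in pNE and 81.5 ± 6.0 TPM in aNE_T. DLL1 made up 63.1% ± 2.8 of the sum in aNE_T and 34.2% ± 1.3 in aNE. In aNE_H and pNE_H JAG1 made up 90.3% ± 0.7 and 91.7% ± 0.6. The sum in pNE_H was 21.5 ± 3.3 TPM, overlapping that in hPSC, where JAG1 was 50.0% ± 6.0 of it. The ligand sum in aNE_T was thus the highest and mostly DLL1. In all other day-2 and day-4 groups it was mostly JAG1, from 62.1% ± 1.6 in aNE to 91.7% ± 0.6 in pNE_H.

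**Figure D2:**
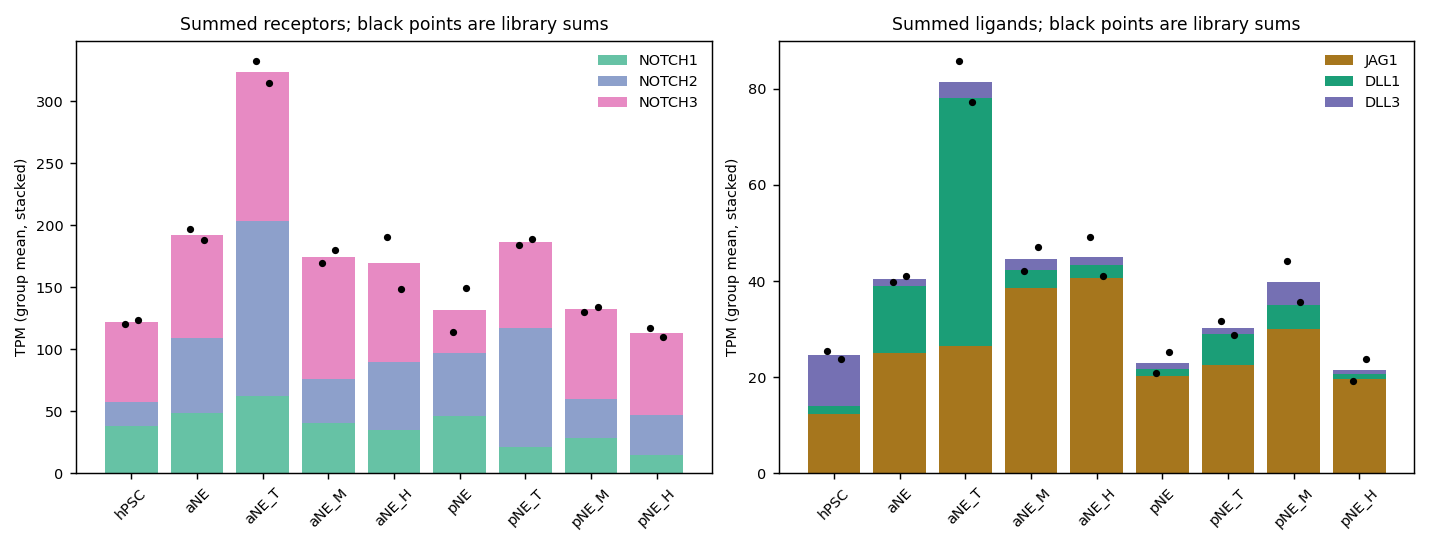
Stacked group means of the 3 receptors (left) and the 3 ligands (right) in TPM, axes from 0, with the sum of each library as a black point. The receptor sum is highest in aNE_T (323 TPM) and lowest in pNE_H (113 TPM), and DLL1 is the larger part of the ligand sum only in aNE_T.

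HES1 (chr3:194136148-194138732), a repressor and the most widely used Notch target, had 12.5 and 12.1 TPM in hPSC, below all other libraries. It stood at 38.4 and 39.5 TPM in aNE and at 53.4 and 57.0 TPM in pNE. The highest level was in aNE_T, 104 and 98.7 TPM, against 38.17 and 38.19 TPM in pNE_T. Both midbrain groups were lower than their day-2 cells and overlapped, with 25.9 and 22.3 TPM in aNE_M and 25.2 and 21.9 TPM in pNE_M. In the hindbrain medium it had 35.54 and 35.59 TPM in aNE_H and 48.9 and 40.3 TPM in pNE_H. The overlap of aNE_M with pNE_M was the only one among the 8 neighbouring pairs in the order of group means.

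HES3 (chr1:6244179-6245578), a HES repressor known from early neuroepithelium and the border of midbrain and hindbrain, had a course of its own. It was high in hPSC (66.9 and 65.5 TPM) and higher in aNE (196 and 176 TPM). In pNE it was at 7.30 and 8.23 TPM. At day 4 cells of aNE origin had 0.778 and 0.375 TPM in the forebrain, 0.155 and 0.130 TPM in the midbrain and 3.53 and 2.23 TPM in the hindbrain medium. Cells of pNE origin had 12.2 and 5.32 TPM in pNE_T, 1.56 and 1.23 TPM in pNE_M, and 0 and 0.374 TPM in pNE_H. The highest group mean, 186 TPM in aNE, was 1306-fold above the lowest, 0.142 TPM in aNE_M, on the TPM scale.

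HES5 (chr1:2528745-2530263), a target that follows Notch activity closely in neural progenitors, was barely present. The 2 aNE_T libraries had 1.25 and 1.09 TPM and pNE_M had 0.730 and 0.146 TPM. No other library passed 0.144 TPM, and 10 of 18 libraries were listed at 0. HEY1, a related repressor, was low outside 1 group. It had 1.48 and 1.95 TPM in hPSC, 0.312 and 0.299 TPM in aNE and 0.372 and 0.731 TPM in pNE. In aNE_M it reached 13.8 and 14.7 TPM. The other day-4 groups had 1.17 and 1.55 TPM (aNE_T), 1.16 and 1.09 TPM (aNE_H), 1.51 and 0.740 TPM (pNE_T), 1.07 and 1.21 TPM (pNE_M) and 3.04 and 2.14 TPM (pNE_H). All other libraries were thus below 3.1 TPM, and aNE_M stood apart from them.

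The HES genes were the members whose promoters held letters matching the core of the RBPJ binding motif. Of the 10 members, 7 had a promoter sequence in RefSeq (GRCh38.p14): NOTCH1, NOTCH2, NOTCH3, JAG1, HES1, HES3 and HES5. Over the 250 bases before the start, TGGGAA on either strand was found in HES1, HES3 and HES5 and in none of the other 4, beside 20.8% of 35116 promoters of that length. HES1 and HES5 held it 2 times, as did 2.90% of promoters counting those with 2 or more. The motif searches with CACNAG, a box bound by HES proteins, matched 3 of the 7 (NOTCH3, HES1 and HES3), beside 32.0% of promoters. CACGTG matched none (6.34% of promoters), and CANNTG, which includes CACGTG and reads the same on both strands in this spelling, matched HES5 only (61.8% of promoters). The windows are shown because these 3 genes took different courses in the libraries. They run 5′ to 3′ in the direction of the gene and end at the base before the start, at chr3:194135898-194136147 on the plus strand for HES1, chr1:2530264-2530513 on the minus strand for HES5 and chr1:6243929-6244178 on the plus strand for HES3. Capitals mark TGGGAA or its reverse complement.
HES1: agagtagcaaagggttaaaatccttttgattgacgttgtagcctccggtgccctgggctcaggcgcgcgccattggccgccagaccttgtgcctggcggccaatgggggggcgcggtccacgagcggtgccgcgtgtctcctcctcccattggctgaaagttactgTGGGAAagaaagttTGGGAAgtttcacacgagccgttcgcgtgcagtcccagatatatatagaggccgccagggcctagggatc
HES5: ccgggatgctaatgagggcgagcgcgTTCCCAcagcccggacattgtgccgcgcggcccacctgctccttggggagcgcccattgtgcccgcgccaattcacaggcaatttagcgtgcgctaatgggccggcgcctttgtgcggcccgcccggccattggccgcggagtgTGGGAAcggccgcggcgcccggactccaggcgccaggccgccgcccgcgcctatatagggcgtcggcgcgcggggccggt
HES3: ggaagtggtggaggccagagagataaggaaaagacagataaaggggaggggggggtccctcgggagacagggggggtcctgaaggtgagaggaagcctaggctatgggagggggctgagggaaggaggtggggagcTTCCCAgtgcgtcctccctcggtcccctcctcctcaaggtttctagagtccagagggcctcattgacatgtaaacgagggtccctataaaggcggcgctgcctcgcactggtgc
In HES1 the matches begin 84 and 70 bases before the start, both on the gene's strand, in HES5 224 (opposite strand) and 80 bases before it, and in HES3 114 bases before it (opposite strand). A match is a description of letters and not a site of binding.

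The first comparison asked which members moved as pluripotent cells became neural ectoderm. From hPSC to aNE 6 of 10 members changed, beside 13.5% of tested genes, and from hPSC to pNE 4 of 10, beside 12.9%. Both comparisons use the same 2 hPSC libraries. NOTCH2 rose in aNE by 1.61 ± 0.12 (adjusted p = 4.81e-07) and in pNE by 1.36 ± 0.12. HES1 rose by 1.58 ± 0.10 in aNE and 2.08 ± 0.10 in pNE (adjusted p = 8.21e-08 and 5.94e-09). DLL3 fell by 2.22 ± 0.21 and 2.33 ± 0.21. HES3 went opposite ways, since it rose by 1.47 ± 0.29 in aNE (adjusted p = 0.00118) and fell by 2.94 ± 0.29 in pNE (adjusted p = 4.24e-06). DLL1 rose in aNE by 2.63 ± 0.35, and in pNE its libraries overlapped those of hPSC (0.07 ± 0.35). HEY1 fell in aNE by 1.05 ± 0.21, a call that was lost without hPSC replicate 2 (-0.93). A pseudocount of 0.1 ended the HES3 call in aNE (adjusted p = 0.0574). JAG1 missed the fold threshold in aNE (0.98 ± 0.13, adjusted p = 5.86e-05), as did NOTCH3 in pNE (-0.90 ± 0.15).

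Set directly against each other at day 2, pNE and aNE differed in 3 of 10 members, beside 3.85% of tested genes. HES3 was lower in pNE by a log2 difference of -4.41 ± 0.29 (adjusted p = 3.34e-07), DLL1 by -2.56 ± 0.35 (adjusted p = 0.000277) and NOTCH3 by -1.27 ± 0.15 (adjusted p = 6.00e-05). The libraries of the 2 groups did not overlap for any of these genes, but neither did they for NOTCH2, DLL3, JAG1, HES1 and HEY1, which were not called. How many of all tested genes have no overlap here was not counted. HES1 was 0.49 ± 0.10 higher in pNE, under the fold threshold. At this stage plating density was the same for both origins, while the media differed in several agents at once. The surface ectoderm markers (EPCAM, KRT8, KRT18, GATA3 and TP63) summed to 1277 to 1400 TPM in pNE and 725 to 743 TPM in aNE, with TP63 under 1 TPM in both. The 7 neuronal markers went the other way, summing to 202 to 237 TPM in pNE and 427 to 439 TPM in aNE. In hPSC the surface ectoderm markers summed to 960 to 962 TPM, with GATA3 and TP63 under 1 TPM, so a high sum is not particular to ectoderm. The part of these levels in the differences between pNE and aNE was not tested.

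At day 4 the same origins were compared within each medium. In the forebrain medium 5 of the 9 members other than HES5 differed, beside 7.77% of tested genes, and 4 of these were lower in cells of pNE origin. NOTCH1 differed by -1.50 ± 0.15 (adjusted p = 7.48e-06), DLL1 by -2.79 ± 0.35, HES1 by -1.39 ± 0.10 (adjusted p = 3.71e-07), and DLL3 by -1.08 ± 0.21. HES3 was higher in pNE_T by 2.54 ± 0.29 (adjusted p = 2.29e-05). HES5, whose call the filter fixed, differed by -1.06 ± 0.21. Without pNE_T replicate 2 the DLL3 call was lost (-0.99). The 6 mesoderm markers (MEOX1, TBXT, TBX6, MESP1, MESP2 and MSGN1) summed to 16.8 to 20.7 TPM in pNE_T and 1.21 to 1.39 TPM in aNE_T, and the 4 endoderm markers (SOX17, FOXA2, GATA4 and GATA6) to 9.21 to 11.51 TPM against 0.393 to 0.466 TPM. The mesoderm markers other than MEOX1 had means under 1 TPM in both groups. The surface ectoderm sum was 1218 to 1339 TPM against 591 to 597 TPM, with TP63 under 1 TPM in both groups. The sum of the 7 neuronal markers was lower in pNE_T, 62.4 to 70.0 TPM against 190 to 210 TPM. The part of these levels in the differences was not tested.

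In the midbrain medium 2 of 10 members differed, beside 5.74% of tested genes. HEY1 was lower in pNE_M by a log2 difference of -2.84 ± 0.21 (adjusted p = 6.50e-07). HES3, at under 2 TPM in all 4 libraries, was higher by 1.07 ± 0.29 (adjusted p = 0.0212), and that call was lost when any 1 of the 4 was left out (adjusted p = 0.0627 to 0.121). In the hindbrain medium 3 of 10 differed, beside 6.83% of tested genes, all lower in pNE_H: HES3 by -1.71 ± 0.29, NOTCH1 by -1.20 ± 0.15 and JAG1 by -1.01 ± 0.13. The JAG1 call was lost without aNE_H replicate 1 (-0.88), without pNE_H replicate 1 (-0.86) and with median-ratio scaling (-0.95). Marker sums differed in both directions between the origins in these media. In the midbrain medium the surface ectoderm markers summed to 2060 to 2120 TPM against 927 to 985 TPM, with GATA3 and TP63 under 1 TPM in both groups. In the hindbrain medium the mesoderm sum was 15.3 to 17.9 TPM against 1.28 to 2.19 TPM and the endoderm sum 12.8 to 15.96 TPM against 0.774 to 0.825 TPM. The mesoderm markers other than MEOX1 had means under 1 TPM in both hindbrain groups. The 7 neuronal markers summed lower from pNE origin, to 250 to 268 TPM against 562 to 600 TPM in the midbrain medium. In the hindbrain medium their sum was 71.6 to 81.3 TPM against 189 to 210 TPM. The sum of 5 endothelial markers was also lower there, 14.1 to 16.3 TPM against 26.2 to 29.0 TPM. All of them but TEK had means under 1 TPM in aNE_H. In pNE_H CDH5 had a mean of 1 TPM or more, as did TEK, so not every marker was lower. The part of these levels in the member differences was not tested.

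**Figure D3:**
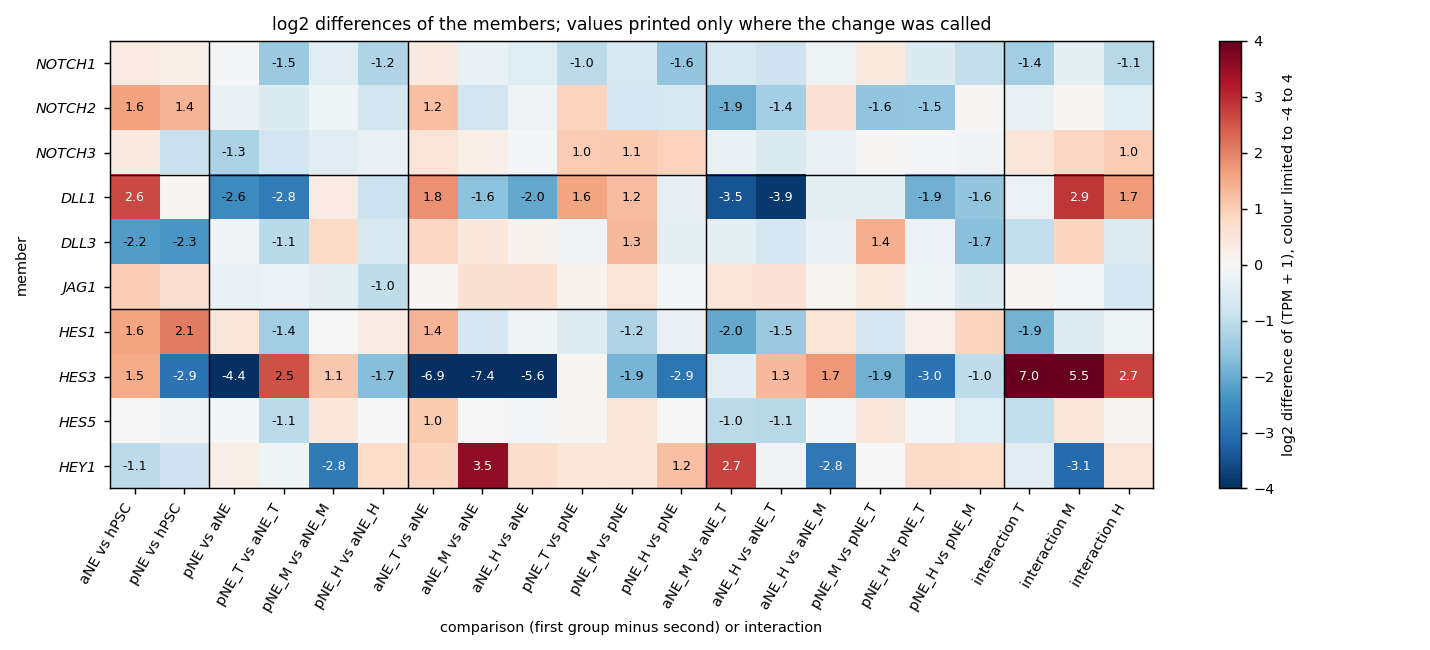
Log2 differences of the members (rows) in 18 comparisons of 2 groups, first minus second, and 3 interactions (columns), in colour limited to 4 either way; a value is printed only where the change was called. HES3 has a called value in 16 of the 18 comparisons and JAG1 in 1, the lower level of pNE_H against aNE_H.

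The change from day 2 to day 4 was then followed within each origin. Plating density changed along with day and medium, from 37500 cells per cm2 to 75000 (aNE origin) or 150000 (pNE origin). These cannot be told apart in the day-2 to day-4 changes. From aNE to aNE_T 4 of the 9 members other than HES5 changed, beside 9.03% of tested genes. NOTCH2 rose by 1.21 ± 0.12, DLL1 by 1.82 ± 0.35 and HES1 by 1.36 ± 0.10 (adjusted p = 9.44e-06, 0.00158 and 5.24e-07). HES5, whose call the filter fixed, rose by 1.05 ± 0.21, and without aNE replicate 2 the call was lost (0.98). HES3 fell by 6.90 ± 0.29 (adjusted p = 2.35e-09), from the highest group mean of any member to under 1 TPM. The 5 endothelial markers (CDH5, PECAM1, ESAM, TIE1 and TEK) summed to 22.1 to 24.1 TPM in aNE, where all but TEK had means under 1 TPM, and to 31.7 to 34.0 TPM in aNE_T. CDH5 went from a mean of 0.0977 to 3.90 TPM and TIE1 from 0.369 to 1.94 TPM, while PECAM1 and ESAM had means under 1 TPM in both. Their part in the member changes was not tested. From aNE to aNE_M 3 of 10 changed, beside 12.0% of tested genes: DLL1 fell by 1.64 ± 0.35, HES3 fell by 7.35 ± 0.29 (adjusted p = 6.08e-10) and HEY1 rose by 3.55 ± 0.21 (adjusted p = 3.42e-08). From aNE to aNE_H 2 of 10 changed, beside 10.1%: DLL1 fell by 2.04 ± 0.35 and HES3 fell by 5.61 ± 0.29. The surface ectoderm markers summed to 1314 to 1406 TPM in aNE_H and 725 to 743 TPM in aNE, with TP63 under 1 TPM in both. Their part in these changes was not tested. The 3 comparisons share the aNE libraries.

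From pNE to pNE_T 3 of 10 members changed, beside 10.2% of tested genes. NOTCH1 fell by 1.04 ± 0.15, NOTCH3 rose by 1.01 ± 0.15 and DLL1 rose by 1.59 ± 0.35 (adjusted p = 0.00365). The NOTCH1 call was lost without pNE replicate 2 (-0.81) or pNE_T replicate 1 (-0.99), and the NOTCH3 call without pNE replicate 1 (0.76). HES3 was not called in this comparison (0.06 ± 0.29, adjusted p = 0.910), since pNE_T had 12.2 and 5.32 TPM on either side of the pNE libraries. The endothelial markers summed to 10.6 to 10.9 TPM in pNE and 43.1 to 45.9 TPM in pNE_T, the mesoderm markers to 0.965 to 1.09 TPM and 16.8 to 20.7 TPM, and the endoderm markers to 2.62 to 4.07 TPM and 9.21 to 11.51 TPM. CDH5 went from a mean of 0.688 to 23.1 TPM, while PECAM1 and ESAM had means under 1 TPM in both groups, as did the mesoderm markers other than MEOX1 and the endoderm markers SOX17 and GATA4. The part of these levels in the changes of NOTCH1, NOTCH3 and DLL1 was not tested.

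From pNE to pNE_M 5 of 10 members changed, beside 12.7% of tested genes. HES1 fell by 1.20 ± 0.10 (adjusted p = 9.59e-07) and HES3 fell by 1.87 ± 0.29. NOTCH3 rose by 1.06 ± 0.15, DLL3 by 1.29 ± 0.21 and DLL1 by 1.23 ± 0.35. The DLL1 call was lost without pNE replicate 1 or pNE_M replicate 1 (adjusted p = 0.104 and 0.114), the DLL3 call without pNE_M replicate 1 (0.93) and the NOTCH3 call without pNE replicate 1 (0.81). Without pNE replicate 1, or without pNE_M replicate 1, 3 members were called. From pNE to pNE_H 3 of 10 changed, beside 12.3%: NOTCH1 fell by 1.59 ± 0.15, HES3 fell by 2.90 ± 0.29 and HEY1 rose by 1.21 ± 0.21. The neural crest marker SOX10 had 0.708 and 1.14 TPM in pNE, 5.35 and 5.43 TPM in pNE_M and 16.2 and 12.7 TPM in pNE_H, where FOXD3 and TFAP2B had means under 1 TPM. The mesoderm sum was 26.3 to 30.8 TPM in pNE_M and 15.3 to 17.9 TPM in pNE_H. Of the mesoderm markers only MEOX1 and TBXT had a mean of 1 TPM or more in pNE_M, and only MEOX1 in pNE_H. In pNE_H all 4 endoderm markers had a mean of 1 TPM or more, with a sum of 12.8 to 15.96 TPM, against 2.09 to 3.05 TPM in pNE_M. The surface ectoderm sum was 1277 to 1400 TPM in pNE, 2060 to 2120 TPM in pNE_M and 1492 to 1698 TPM in pNE_H. TP63 was under 1 TPM in each of these groups, and GATA3 was under 1 TPM in pNE_M. The part of these levels in the member changes was not tested.

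**Figure D4:**
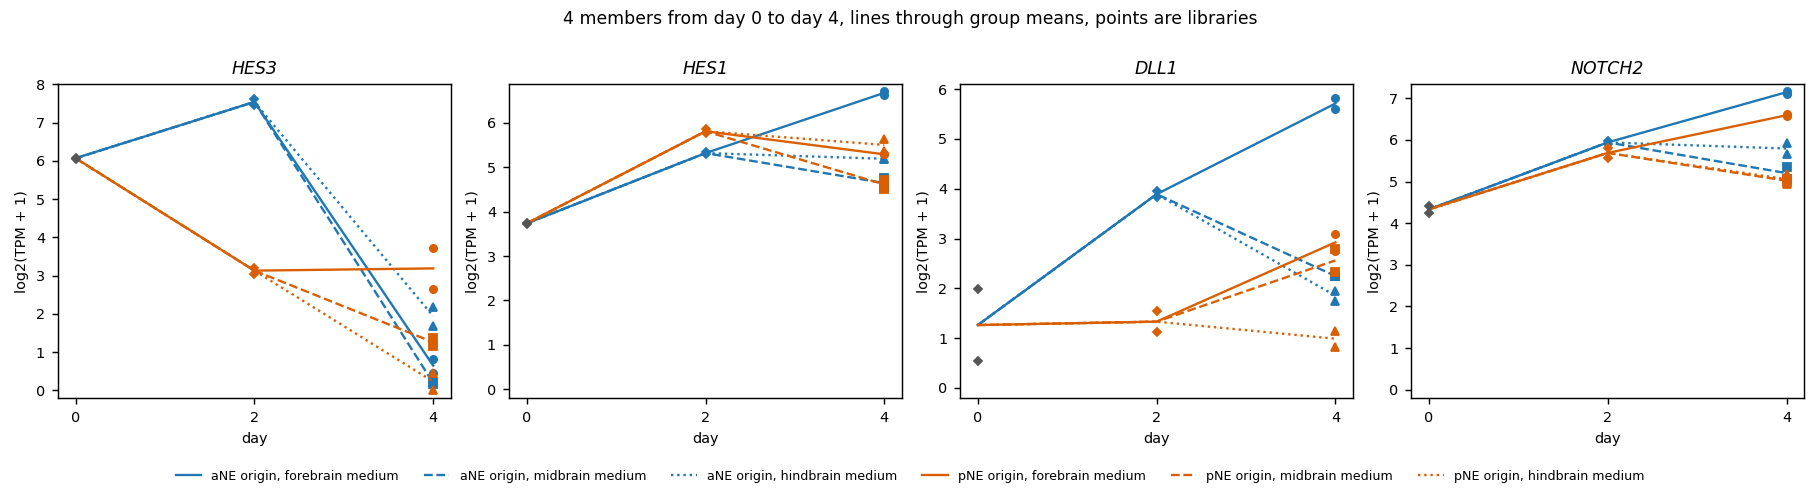
log2(TPM + 1) of HES3, HES1, DLL1 and NOTCH2 at day 0, day 2 and day 4; lines join group means (blue aNE origin, orange pNE origin; solid, dashed and dotted for the forebrain, midbrain and hindbrain media) and points are libraries. HES3 parts at day 2 (186 TPM in aNE, 7.77 TPM in pNE), and at day 4 the aNE_T libraries are the highest for HES1, DLL1 and NOTCH2.

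Media were compared within each origin at day 4, where plating density was the same. Against aNE_T, 4 of the 9 members other than HES5 differed in aNE_M, beside 10.1% of tested genes, and 4 of 9 in aNE_H, beside 6.60%. NOTCH2 was lower by -1.94 ± 0.12 in aNE_M and -1.35 ± 0.12 in aNE_H, DLL1 by -3.46 ± 0.35 and -3.86 ± 0.35, and HES1 by -2.03 ± 0.10 and -1.49 ± 0.10. HES5, whose calls here the filter fixed, was lower by -1.04 ± 0.21 in aNE_M, and in aNE_H it was listed at 0 in both libraries and called lower (adjusted p = 0.00167). The HES5 call in aNE_M was lost without aNE_M replicate 1 (-0.97). HEY1 was higher in aNE_M by 2.70 ± 0.21 and HES3 was higher in aNE_H by 1.29 ± 0.29. Between aNE_H and aNE_M 2 of 10 differed, beside 4.92%: HES3 was higher (1.74 ± 0.29) and HEY1 lower (-2.84 ± 0.21) in aNE_H.

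In cells of pNE origin, 3 of 10 members differed between pNE_M and pNE_T, beside 8.60% of tested genes. NOTCH2 was lower in pNE_M by -1.57 ± 0.12 (adjusted p = 7.48e-07) and HES3 by -1.93 ± 0.29, whereas DLL3 was higher by 1.44 ± 0.21. Between pNE_H and pNE_T 3 of 10 differed, beside 5.03%: NOTCH2 by -1.53 ± 0.12, DLL1 by -1.93 ± 0.35 and HES3 by -2.96 ± 0.29. Between pNE_H and pNE_M 3 of 10 differed, beside 5.99%: DLL1 by -1.57 ± 0.35, DLL3 by -1.68 ± 0.21 and HES3 by -1.03 ± 0.29. Of these last, the DLL1 call was lost without pNE_M replicate 1 (adjusted p = 0.0671), which left 1 of 10 members, and the HES3 call was lost without either pNE_M library or without pNE_H replicate 1 (adjusted p = 0.0634 to 0.147). NOTCH2 was the member lower in both other media than in the forebrain medium for cells of both origins, and the summed neural progenitor markers, highest in aNE_T and pNE_T, moved with it. The part of the marker levels in that difference was not tested.

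The day-2 to day-4 change in pNE-derived cells less that in aNE-derived cells was tested as an interaction for each medium. Plating density went from 37500 cells per cm2 to 75000 in aNE-derived cells but to 150000 in pNE-derived cells. Origin and plating density thus cannot be told apart in these values. In all, 10 of 30 values were called, beside 7.33% over the 3 interactions. For the forebrain medium 3 of 10 members were called, beside 7.14% of tested genes: HES3 at 6.96 ± 0.41 (adjusted p = 1.26e-07), HES1 at -1.88 ± 0.14 (adjusted p = 1.37e-06) and NOTCH1 at -1.40 ± 0.21 (adjusted p = 0.000527). HES1 went up in this medium from aNE (38.9 to 101 TPM) and from pNE stood at 55.2 TPM before and 38.2 TPM after. DLL1 rose from both origins and its interaction was -0.23 ± 0.50. For the midbrain medium 3 of 10 were called, beside 7.02%: HES3 at 5.48 ± 0.41, HEY1 at -3.08 ± 0.30 (adjusted p = 1.17e-05) and DLL1 at 2.87 ± 0.50 (adjusted p = 0.00162), which fell from aNE and rose from pNE. For the hindbrain medium 4 of 10 were called, beside 7.83%: HES3 at 2.71 ± 0.41, DLL1 at 1.69 ± 0.50, NOTCH1 at -1.11 ± 0.21 and NOTCH3 at 1.00 ± 0.21. In that medium DLL1 was called in the complete set and without pNE replicate 2, but not without any of the other 7 libraries (adjusted p = 0.0547 to 0.115). NOTCH1 was lost without aNE_H replicate 1, pNE replicate 2 or pNE_H replicate 2 (-0.97 to -0.88), and NOTCH3 without aNE replicate 1, aNE_H replicate 2, pNE replicate 1 or pNE_H replicate 1 (0.76 to 0.94). With a pseudocount of 0.1 the HES3 and DLL1 values for the hindbrain medium were not called (adjusted p = 0.82 and 0.169). HES3, DLL1 and NOTCH3 were already lower in pNE than in aNE at day 2, by log2 differences of -4.41, -2.56 and -1.27, and their interactions hold those starting differences. For DLL1 the midbrain groups differed at day 4 by 0.31 ± 0.35 and the hindbrain groups by -0.86 ± 0.35, and for NOTCH3 the hindbrain groups differed by -0.26 ± 0.15, none of them called.

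The other genes of the pathway formed a list of 48, of which 47 were tested. They include the ligand-modifying and ligand-endocytosis enzymes, the receptor cleavage machinery, RBPJ and its partners, and further targets. In aNE against hPSC 7 rose and 5 fell (12 of 47, beside 13.5% of tested genes), and in pNE against hPSC 4 rose and 6 fell (10 of 47, beside 12.9%). DLK1, an imprinted Delta-like protein without the domain that activates Notch, rose by 6.04 ± 0.21 in aNE and 3.38 ± 0.21 in pNE. DTX4, a Deltex ubiquitin ligase, rose by 2.75 ± 0.15 and 3.35 ± 0.15. HEY2, a relative of HEY1, fell by 2.63 ± 0.17 in aNE, and the corepressor TLE2 fell by 2.51 ± 0.33 in pNE. Between the origins at day 2, 1 of 47 was higher and 2 lower in pNE, beside 3.85% of tested genes, with DLK1 (-2.66 ± 0.21) and HES4 (-1.48 ± 0.28) lower.

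LFNG, the Fringe enzyme that adds sugars to Notch and alters which ligands it answers, and NRARP, a Notch target that damps the signal, differed by origin in every day-4 medium. LFNG was lower in cells of pNE origin by -2.00 ± 0.11 in the forebrain, -2.49 ± 0.11 in the midbrain and -2.14 ± 0.11 in the hindbrain medium. Its levels were 44.1, 100.6 and 57.7 TPM in the groups of aNE origin and 10.2, 17.1 and 12.4 TPM in those of pNE origin. NRARP was lower by -1.67 ± 0.19, -1.50 ± 0.19 and -2.13 ± 0.19, with 11.01, 14.1 and 7.03 TPM against 2.80, 4.41 and 0.832 TPM. It was highest in hPSC, at 34.1 and 32.8 TPM, where HES1 was lowest. Among the members, NOTCH1 had day-4 libraries that separated by origin, but its difference in the midbrain medium was under the fold threshold (-0.47 ± 0.15). In all, 2 of 47 pathway genes were higher and 6 lower in pNE_T than in aNE_T, beside 7.77% of tested genes. In the midbrain medium 1 was higher and 4 lower, beside 5.74%, and in the hindbrain medium 1 was higher and 3 lower, beside 6.83%.

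**Figure D5:**
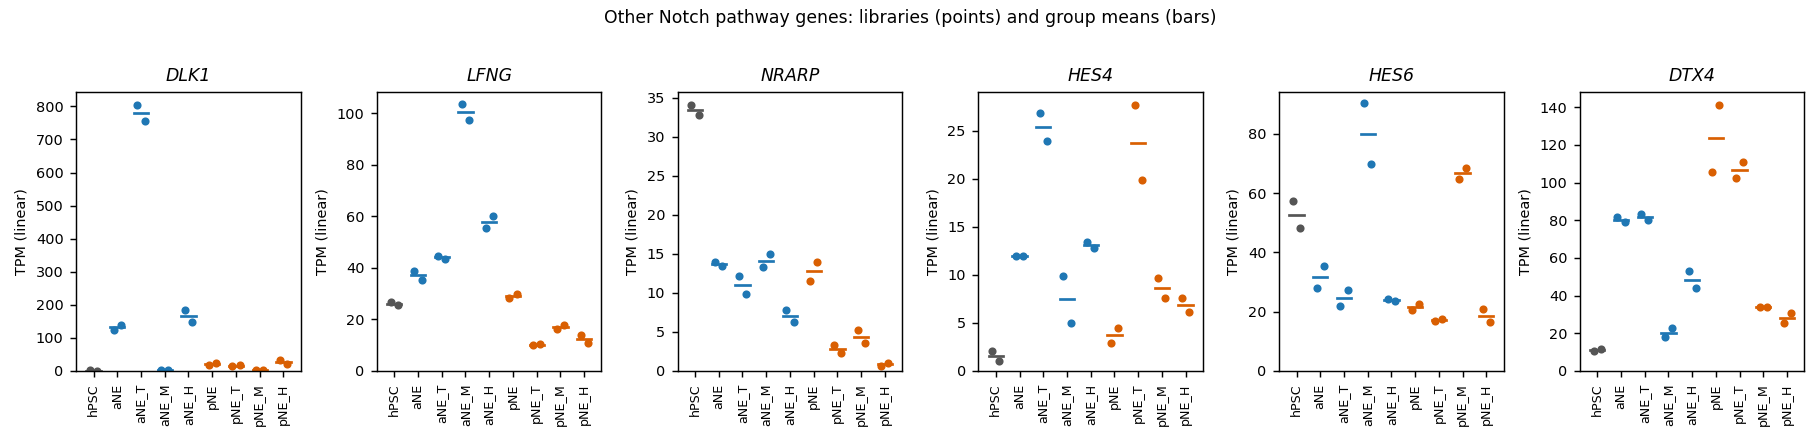
TPM (linear axes from 0) of 6 other pathway genes in the 9 groups, points for libraries and bars for means, coloured as in the plot of member levels. DLK1 reaches 779 TPM in aNE_T, LFNG and NRARP are lower in all 3 day-4 groups of pNE origin than in those of aNE origin in the same medium, and HES6 is highest in the 2 midbrain groups.

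From day 2 to day 4, 3 of 47 pathway genes rose and 2 fell in aNE_T, beside 9.03% of tested genes, among them DLK1 (2.55 ± 0.21), the Mastermind gene MAML2 (2.27 ± 0.19) and the corepressor TLE1 (-1.12 ± 0.10). In aNE_M 5 rose and 5 fell, beside 12.0%: HEY2 rose by 2.55 ± 0.17 and HES7, the oscillating repressor of somite formation, by 2.38 ± 0.28, in the group in which HEY1 rose, while DLK1 fell by 4.997 ± 0.21. The mesoderm markers MEOX1 and TBXT were above 1 TPM in this group and the 6 mesoderm markers summed to 17.3 to 21.8 TPM, with TBX6, MESP1, MESP2 and MSGN1 under 1 TPM. The sum was 1.25 to 1.63 TPM in aNE, and 7 neuronal markers summed to 562 to 600 TPM in aNE_M and 427 to 439 TPM in aNE, with DCX, ELAVL3, ELAVL4 and NHLH1 under 1 TPM in aNE_M. In pNE_M the mesoderm sum was 26.3 to 30.8 TPM, the neuronal sum 250 to 268 TPM, and HEY1 was at 1.07 and 1.21 TPM. There too TBX6, MESP1, MESP2 and MSGN1 were under 1 TPM, as were DCX, ELAVL3, ELAVL4, STMN2 and NHLH1. The part of these levels in the rise of HEY1 in aNE_M was not tested. In aNE_H 1 pathway gene rose and 5 fell, beside 10.1%, among them TLE1 (-1.54 ± 0.10). From pNE, 2 rose and 3 fell in pNE_T, beside 10.2% of tested genes, 6 rose and 7 fell in pNE_M, beside 12.7%, and 1 rose and 6 fell in pNE_H, beside 12.3%. NEURL1B, a Neuralized ligase that drives ligand endocytosis, rose in all 3 (2.12 ± 0.14, 1.72 ± 0.14 and 2.36 ± 0.14). HES4 rose in pNE_T by 2.39 ± 0.28, from 3.72 to 23.7 TPM, in a comparison in which HES1 differed by -0.52 ± 0.10, under the fold threshold.

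Between media within the aNE origin, 6 of 47 pathway genes were higher and 5 lower in aNE_M than in aNE_T, beside 10.1% of tested genes. In aNE_H 0 were higher and 3 lower than in aNE_T, beside 6.60%, and 2 higher and 5 lower than in aNE_M, beside 4.92%. Within the pNE origin the counts were 4 and 5 for pNE_M against pNE_T, beside 8.60%, 0 and 4 for pNE_H against pNE_T, beside 5.03%, and 1 and 4 for pNE_H against pNE_M, beside 5.99%. HES6, a HES relative that counteracts HES1, was higher in pNE_M than in pNE_T by 1.90 ± 0.16. For the interactions, 3 were above and 4 below in the forebrain medium, beside 7.14%, 3 and 3 in the midbrain medium, beside 7.02%, and 2 and 4 in the hindbrain medium, beside 7.83%. Median log2 differences over the 47 genes lay between -0.25 and 0.11, while those over all tested genes lay between -0.08 and 0.06.

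Of 8 proneural factors, the genes that HES proteins repress, only NEUROG1, NEUROG2 and INSM1 reached the minimum level. Of these 3, 1 was called higher in aNE than in hPSC (beside 13.5% of tested genes) and 1 lower in pNE than in aNE (beside 3.85%). In pNE_T against aNE_T 1 was higher and 1 lower, beside 7.77%. These counts are descriptions. NEUROG2 stood at 24.8 and 14.2 TPM in pNE_M, at 1.41 and 1.78 TPM in pNE_T and under 0.4 TPM in all other libraries. It was listed at 0 in both pNE libraries and was called higher in pNE_M (adjusted p = 1.80e-08). NEUROG2 passed the minimum level through the pNE_M and pNE_T libraries only, so that call is a description and no independent test. NEUROG1 was at 1.68 and 3.67 TPM in aNE_M.

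Across the 18 libraries, some members had similar patterns on the log2(TPM + 1) scale. These correlations are descriptions over 9 groups of 2 libraries that share culture stages. NOTCH2 and HES1 had Pearson's r = 0.82 and Spearman's rho = 0.63, and r = 0.72 over the 16 libraries without hPSC. DLL1 and NOTCH2 had r = 0.76, and DLL1 and HES5 r = 0.77, the latter resting on HES5 in aNE_T. HES3 and HEY1 ran opposite (r = -0.53, rho = -0.68). Over all tested genes with a symbol and a group mean of at least 5 TPM, the gene most like NOTCH2 was TEAD3 (r = 0.99), followed by NBPF26 and NBPF19 (both r = 0.98). In RefSeq NBPF26 (chr1:120723945-120842229) overlaps the NOTCH2 copy NOTCH2NLR (chr1:120723945-120794851), and NBPF19 (chr1:149475045-149556361) lies next to NOTCH2NLC (chr1:149390621-149471833). The gene most like HES3 was CDHR1 (r = 0.96), that most like DLL1 was EFR3B (r = 0.94) and that most like HES1 was FAM210B (r = 0.91). For NOTCH1 it was CCDC88C (r = 0.95), for JAG1 CDON (r = 0.93), for HEY1 XKR7 (r = 0.92), for NOTCH3 CSNK1E (r = 0.90) and for DLL3 TCEAL2 (r = 0.90). Without the hPSC libraries the first gene stayed the same for NOTCH2, DLL1 and HES3 and was another for 6 of the 9 members: GPC1 for NOTCH1, PDXP for JAG1, ZNF467 for HEY1, SIDT2 for NOTCH3, ZIC1 for DLL3 and SYNPO for HES1. HES5 never reached 5 TPM and was given no such match.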

How the data were processed

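RNA was measured in 18 libraries of 9 groups with 2 biological replicates each, grouped by the labels. The values are TPM per gene that the authors computed and deposited as 1 table. The submitters' processing notes name bcl2fastq, FastQC, Trim Galore, kallisto, deepTools and the build hg38, with no versions given in the sources used here. Whether quantification used the strand is not given. TPM keeps no depth, so no counting intervals or detection limits could be given. Estimates for near-identical genes depend on how the authors' tool divides shared reads.

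Values were analysed as log2(TPM + 1) for the 17033 genes that reached 1 TPM in 2 or more libraries. A model with a mean for each of the 9 groups (limma 3.58.1 under R 4.3.3, residual degrees of freedom 9, variance moderated with a trend) took in the 18 libraries together. P-values were two-sided and adjusted by Benjamini-Hochberg over all tested genes. A change was called where the adjusted p was under 0.05 and the log2 difference was 1 or more in size, in 18 comparisons of 2 groups and 3 interactions. Errors are SD (n = 2) for TPM and SE for log2 differences. The scripts were tested on simulated data.

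The members and all gene lists were chosen with earlier results of these data known. All 10 members are named. Of 48 other pathway genes, at most 3 per comparison are named, those with the largest absolute change among the changed genes with at least 5 TPM in the higher group. The 8 proneural factors and the cell type markers were further lists, and the summed neural crest list is not reported here. Genes most like a member are the 3 with the highest Pearson's r, of which all are given for NOTCH2 and the first for other members. Promoters come from RefSeq tables on GRCh38.p14. Replicate numbers did not pair libraries: the correlation of same-numbered deviations from group means lay between -0.09 and 0.08, with 0 of 36 pairs of groups over 0.1. As alternatives, the pseudocount was set to 0.1, the minimum level was dropped or raised to 5 TPM, values were scaled by median ratios or by quantiles, only compared libraries were fitted, and the adjusted p was used alone. Further ones were a replicate block, leaving out each library, and NOTCH2 summed with its copies, which was chosen after seeing the data.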

Additional observations from a re-analysis of the deposited data

Results flagged for a closer look

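In 10 cases the change from day 2 to day 4 differed between the origins by the interaction test (limma, adjusted over all tested genes, pNE-derived change minus aNE-derived change on the log2(TPM + 1) scale). In the forebrain medium these were HES3 (6.96, adjusted p = 1.26e-07), HES1 (-1.88, adjusted p = 1.37e-06) and NOTCH1 (-1.40, adjusted p = 0.000527). In the midbrain medium they were HES3 (5.48, adjusted p = 1.12e-06), HEY1 (-3.08, adjusted p = 1.17e-05) and DLL1 (2.87, adjusted p = 0.00162). In the hindbrain medium they were HES3 (2.71, adjusted p = 0.000486), DLL1 (1.69, adjusted p = 0.0354), NOTCH1 (-1.11, adjusted p = 0.00275) and NOTCH3 (1.00, adjusted p = 0.00437). HES1, NOTCH1 and NOTCH3 stood above 12 TPM in every library, while the values of DLL1, HES3 and HEY1 included levels near or under 1 TPM. Plating density at day 4 differed with origin, so the 2 cannot be told apart in these interactions. Groups of 2 libraries were too small for a check of single libraries that stand apart.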

How the results depend on the processing

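No member value changed direction among its called values under any alternative. Of 76 called values (66 between groups and 10 interactions), 73 were kept with a pseudocount of 0.1 (9 were gained), 74 without a filter, 75 with median-ratio scaling, 73 with quantile normalization and 74 where libraries outside a comparison were not fitted. At a minimum of 5 TPM 72 were kept, and the other 4, all of HES5, were not tested. With NOTCH2 summed with its copies 76 were kept. Scaling moved the median over all genes by under 0.1 in every comparison.

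Counts of members called changed by over 1.5 times mainly when the adjusted p alone was used, without a minimum fold. They were then 7 for pNE against hPSC, 4 and 7 for pNE_M against aNE_M and pNE_H against aNE_H, 8, 6 and 5 for aNE_T, aNE_M and aNE_H against aNE, 5, 8 and 6 for pNE_T, pNE_M and pNE_H against pNE, 9 for aNE_H against aNE_T, 4 for aNE_H against aNE_M, 5 and 5 for pNE_M and pNE_H against pNE_T, 7 for pNE_H against pNE_M, and 5 and 5 for the interactions in the forebrain and midbrain media. In the same order the share of all tested genes under that rule was 38.4%, 16.6% and 21.9%, 30.3%, 35.5% and 31.3%, 33.6%, 35.4% and 37.2%, 27.2%, 14.2%, 28.5% and 18.2%, 19.7%, and 12.3% and 13.9%. With a pseudocount of 0.1 the count was 5 for pNE_H against aNE_H, beside 9.12% of all tested genes, and 2 for the interaction in the hindbrain medium, beside 8.04%. Leaving out 1 library gave 1 to 2 members for pNE_M against aNE_M, 3 to 5 for pNE_M against pNE, 1 to 4 for pNE_H against pNE_M and 2 to 4 for the interaction in the hindbrain medium. A group left with 1 library was assumed to vary like the others.

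With the replicate number as a block, all 76 calls were kept, and no call changed. Depth is unknown for TPM, and the levels of HES5 in all groups, of HES3 in aNE_T, aNE_M and pNE_H and of HEY1 in aNE lie where single estimates are least certain.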
